A study of Mus musculus with 6 samples.

Results

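The 43 genes described here are interferon-stimulated antiviral genes, from the transcription factors that turn the programme on to the proteins that block viruses. They were taken by gene symbol from the 16448 genes in the authors' deposited table, leaving aside the 2',5'-oligoadenylate synthetases, the RNA sensors and the guanylate-binding and immunity-related GTPases. All 43 symbols were found, each once. RNA had been sequenced from CD4+CD8+ double-positive (DP) thymocytes, the stage at which developing T cells rearrange the T cell receptor alpha chain and are selected. Sorting was done on thymus cells of C57BL/6 mice that were Mettl14 fl/fl and carried CD4-Cre (KO, 3 libraries), and of littermate controls labelled WT (3 libraries). Whether the controls carried the floxed allele or the Cre transgene is not given in the sources used here, nor is the age of the animals. CD4-Cre is driven by regulatory sequence of the Cd4 gene, which becomes active at about the DP stage. Mettl14 encodes a subunit of the enzyme that writes N6-methyladenosine on RNA.

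Type I interferons bind a receptor made of Ifnar1 and Ifnar2, whose kinases Jak1 and Tyk2 phosphorylate Stat2. A complex that holds Stat2 and Irf9 then binds the interferon-stimulated response element (ISRE) in the promoters of target genes. The targets include enzymes that degrade or modify viral RNA, proteins that hold back virus particles, the sensors that detect infection, and inhibitors such as Usp18 that end the response. Many of these genes are also expressed at a low level without infection, and thymocytes meet small amounts of interferon inside the thymus.

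The ISRE is shown first because it is the sequence feature that links many of these genes and was not used to choose them. RefSeq promoter windows on build GRCm38.p6, reaching from 250 bases before to 50 bases after a gene's start, were matched for 35 of the 43 genes, with 44 windows in all. The core of the ISRE was searched on both strands as GAAA, any pair of bases, then GAAA, and was in a window of 14 of the 35 genes (40%) and of 1079 of all 27025 genes in the table (3.99%). Windows with at least 2 such starts, which may overlap one another, belonged to 7 of the 35 genes (20%) and to 0.266% of all genes. The letters TTCNNNGAA, the core of the gamma-activated site, were in a window of 6 of the 35 genes (17.1%) and of 9.55% of all genes, and overlapped the ISRE core in 1 of them, Bst2. A match is a run of letters, not a measured binding site. The stretches below, from before the start of 8 genes, are written 5′ to 3′ along each gene's own strand, with the ISRE core or its reverse complement in capitals.
Isg15 (chr4:156200860-156200911, minus strand): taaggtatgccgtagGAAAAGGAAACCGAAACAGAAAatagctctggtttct
Ifit1 (chr19:34640770-34640828, plus strand): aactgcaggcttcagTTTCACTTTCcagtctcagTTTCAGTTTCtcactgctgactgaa
Ifit3 (chr19:34583358-34583431, plus strand): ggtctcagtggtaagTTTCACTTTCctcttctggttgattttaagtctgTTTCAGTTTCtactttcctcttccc
Ifit3b (chr19:34607754-34607827, plus strand): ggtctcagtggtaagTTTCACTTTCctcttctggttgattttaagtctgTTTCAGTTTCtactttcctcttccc
Bst2 (chr8:71537572-71537617, minus strand): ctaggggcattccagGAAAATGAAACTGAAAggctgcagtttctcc
Rsad2 (chr12:26456548-26456587, minus strand): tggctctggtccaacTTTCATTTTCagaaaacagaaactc
Stat2 (chr10:128270261-128270300, plus strand): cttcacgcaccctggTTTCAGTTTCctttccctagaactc
Ddx60 (chr8:61928019-61928086, plus strand): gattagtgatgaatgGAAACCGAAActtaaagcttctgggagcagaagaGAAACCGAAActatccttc
Isg15 held 3 overlapping starts in a row, and the stretches of Ifit3 and Ifit3b were the same letter for letter.

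The libraries held 29500254 to 33377056 counts assigned to genes. No label ties a library to an animal of its own. The p-values here therefore set the difference between KO and WT only against the spread between libraries. Some of that spread may be technical. Levels are CPM, the counts of a gene per 1e6 counts of its library, scaled by TMM so that the bulk of genes match between libraries. A log2 fold change above 0 means a higher level in KO. Mettl14 was at 52.1, 58.8 and 55.8 CPM in WT replicates 1 to 3 and at 42.2, 40.3 and 36.4 CPM in KO replicates 1 to 3, with no overlap between the groups (log2 fold change -0.49, edgeR adjusted p = 0.289). WT replicate 1 was the library least like the others of its group: the chi-square of its counts against theirs, per degree of freedom, was 41 and 56.3, against 17.3 to 28.4 for the other pairs of replicates. The 10 markers of DP thymocytes, among them Cd4, Cd8a and Rag1, summed to 20116 to 21535 CPM in WT and 21062 to 21709 CPM in KO.

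Interferon-stimulated genes were on average higher in the KO libraries, but no single one passed edgeR's test over all genes. Of the 42 members with enough reads to be tested, 40 had a fitted log2 fold change above 0 (95.2%, against 48.9% of all 13039 genes tested), and the median was 0.52, against -0.004 over all genes. Phf11b and Phf11d, both among the 40, had enough reads to be tested only with their KO libraries counted. In edgeR's quasi-likelihood test, 0 members and 5 of all genes (0.0383%) had an adjusted p under 0.05, and the smallest adjusted p of a member was 0.289. At an unadjusted p under 0.05, 17 members were higher (40.5%, against 3.41% of all genes) and 0 were lower (3.31% of all genes). DESeq2 called 7 members higher (0.179% of all genes) and 0 lower (0.531%): Trim25, Xaf1, Rtp4, Ifi27l2a, Usp18, Isg15 and Dtx3l. The authors' deposited table has 11 members with an adjusted p under 0.05 and a higher level in KO (0.245% of all genes), and 0 lower (0.516%). Those 11 are the 7 genes above with Irf7, Lgals3bp, Cmpk2 and Bst2. These counts describe the same 6 libraries, and the members were chosen with earlier results of these data known, so they are not independent of one another. The members do not vary independently either, which is why each library is given below.

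**Figure D1:**
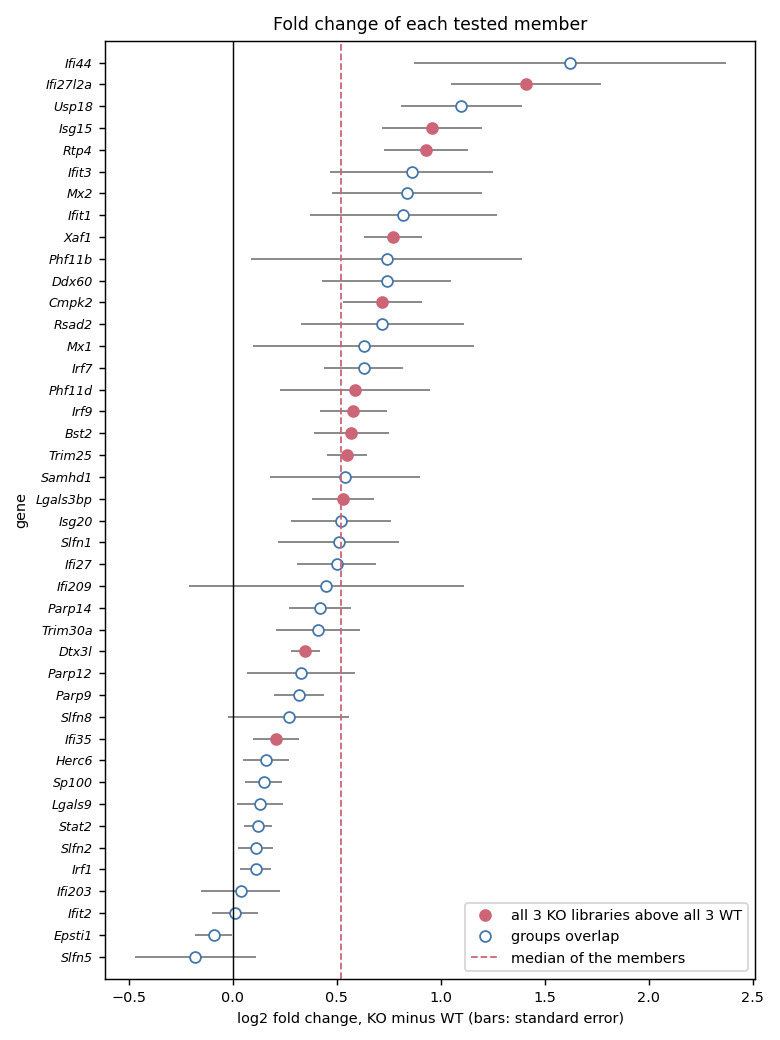
Fitted log2 fold change (KO minus WT, x axis) of each of the 42 tested members, with bars of 1 standard error from edgeR. Filled points mark the 12 genes with all 3 KO libraries above all 3 WT libraries. Phf11d, one of the 12, had enough reads to be tested only through its KO libraries. The dashed line is the median of 0.52, and Slfn5 and Epsti1 lie below 0.

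All 3 KO libraries lay above all 3 WT libraries for 12 of the 42 members (28.6%, against 6.59% of all genes), and for none did all 3 lie below (5.97% of all genes). Among the 12 is Phf11d, with 9, 7 and 9 counts in WT and 11, 13 and 12 counts in KO. It had enough reads to be tested only through its KO libraries, which favours this pattern, so its lack of overlap is no separate result. The libraries differed within KO as well. KO replicate 2 was the highest of the 6 libraries in 25 members, KO replicate 1 in 10, KO replicate 3 in 5 and WT replicate 1 in 2. Over all genes tested these libraries were the highest in 11.7%, 17.1%, 14.7% and 27.7%. WT replicates 1 and 3 were each the lowest in 16 members. Averaged over the 42 members, log2 CPM relative to the mean of the 6 libraries stood, for replicates 1 to 3, at WT values of -0.30, -0.04 and -0.36 and KO values of 0.24, 0.56 and -0.10. KO replicate 3 thus lay below WT replicate 2 on this average, so the groups overlapped. It lay above every WT library in 16 members, against 31 for KO replicate 1 and 37 for KO replicate 2. Over all genes tested the shares were 23.5%, 25.5% and 21%. Without KO replicate 2 the median log2 fold change of the members was 0.34.

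**Figure D2:**
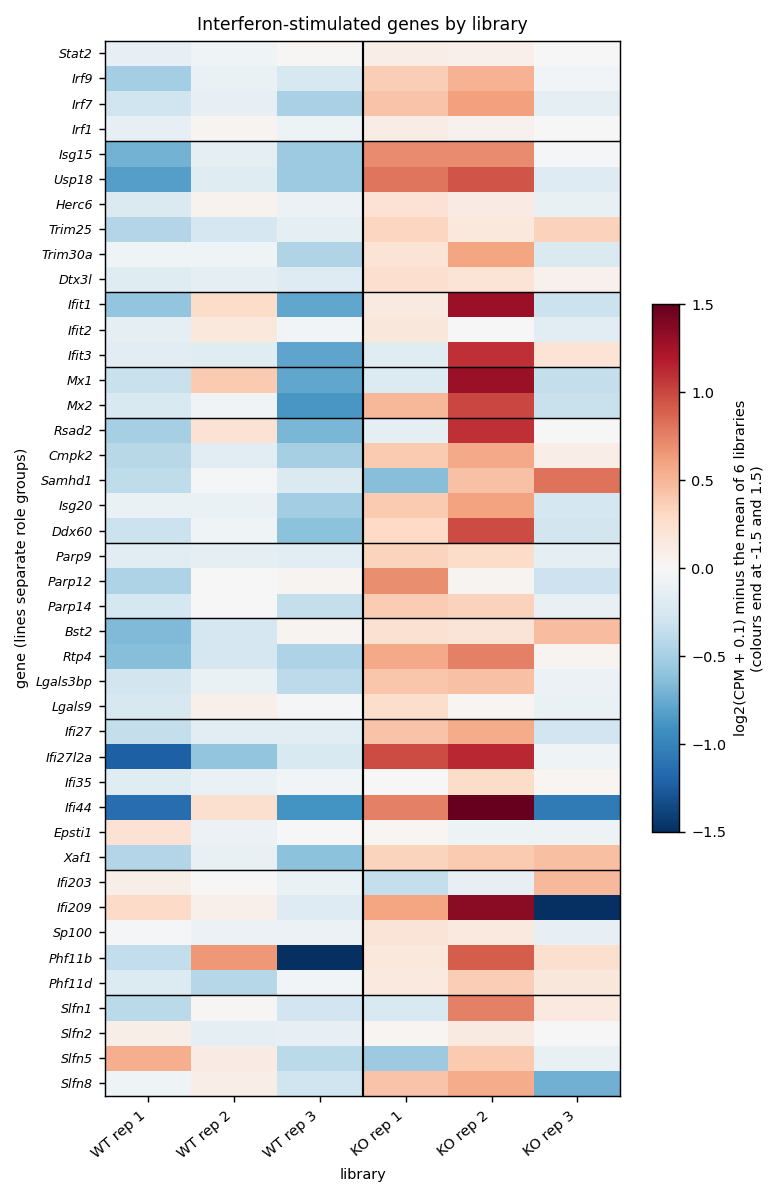
Level of the 42 tested members (rows, grouped by role) in each library (columns), as log2(CPM + 0.1) minus the mean of the 6 libraries; red is higher and blue lower. KO replicates 1 and 2 are mostly red and WT replicates 1 and 3 mostly blue, with KO replicate 3 between them.

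Of the 4 transcription factors, Irf9 and Irf7 were higher in KO at an unadjusted p under 0.05, and Stat2 and Irf1 were not. Irf9, the DNA-binding subunit of the complex, was at 54.7, 72.4 and 65.6 CPM in WT and 100, 112 and 75.6 CPM in KO (replicates 1 to 3 throughout). Every KO library was above every WT library, with KO replicate 3 closest to WT (log2 fold change 0.58, SE 0.16, edgeR adjusted p = 0.592). Irf7, which amplifies interferon production and is itself a target, was at 20.5, 23.3 and 18.0 CPM in WT and 34.1, 38.8 and 23.0 CPM in KO. KO replicate 3 lay just below WT replicate 2, so the groups overlapped (0.63, SE 0.19, edgeR adjusted p = 0.63). Stat2, the partner of Irf9, was at 126, 132 and 139 CPM in WT and 148, 145 and 137 CPM in KO (0.12, SE 0.067, edgeR adjusted p = 0.776). Irf1, a factor induced by both interferon types, was at 80.3, 90.6 and 82.9 CPM in WT and 94.6, 91.5 and 87.4 CPM in KO (0.11, SE 0.074, edgeR adjusted p = 0.801). For Stat2 and Irf1 the 6 libraries spanned less than they did for Irf9, with the highest library at 1.17 and 1.18 times the lowest, and 2.05 times for Irf9.

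Of the 6 genes of Isg15 conjugation and the ubiquitin ligases, 4 were higher at an unadjusted p under 0.05 (3.41% of all genes), with a median log2 fold change of 0.48. Isg15 encodes a ubiquitin-like protein that is attached to other proteins during infection. It was at 6.00, 8.93 and 6.76 CPM in WT and 16.2, 16.3 and 9.82 CPM in KO, with no overlap between the groups. Its mean went from 7.23 ± 1.52 CPM in WT to 14.1 ± 3.72 CPM in KO (SD, n = 3 each), or 0.96 on the log2 scale (SE 0.24, edgeR adjusted p = 0.52; DESeq2 adjusted p = 0.0129). Its transcript is 95.2% identical over 482 of 756 bases to a transcript of an unnamed gene that has no row in the count table. Usp18, the protease that removes Isg15 and also dampens the interferon receptor, was at 11.6, 18.2 and 14.1 CPM in WT and 36.2, 39.8 and 18.1 CPM in KO. KO replicates 1 and 2 were far above WT, and KO replicate 3 was level with WT replicate 2 (1.10, SE 0.29, edgeR adjusted p = 0.578; DESeq2 adjusted p = 0.0105). Herc6, the ligase for Isg15 in the mouse, had a log2 fold change of 0.16 (SE 0.11), with 45.1 to 54.4 CPM in WT and 48.4 to 60.8 CPM in KO.

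The lowest edgeR p of the 42 tested members was that of the ubiquitin ligase Trim25. Trim25 (chromosome 11, 88999376 to 89020293 on mm10), which modifies the RNA sensor RIG-I, was at 151, 172 and 187 CPM in WT and 256, 228 and 260 CPM in KO. The groups did not overlap, and here KO replicate 3 was the highest library. On the log2 scale the difference was 0.55 ± 0.094 (SE; edgeR adjusted p = 0.289; DESeq2 adjusted p = 0.00067). For Trim25 the authors' deposited table lists 0.56 (adjusted p = 6.27e-05). With no filter on low counts, the edgeR adjusted p of Trim25 was 0.041. Dtx3l (chromosome 16, 35926511 to 35939151), a ligase that works with Parp9, was at 116, 119 and 115 CPM in WT and 157, 152 and 138 CPM in KO. The WT libraries were close together and all KO libraries higher (0.35, SE 0.070, edgeR adjusted p = 0.335). Trim30a, another TRIM protein, had a log2 fold change of 0.41 (SE 0.20), from 34.8 to 45.5 CPM in WT and 40.9 to 71.9 CPM in KO.

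**Figure D3:**
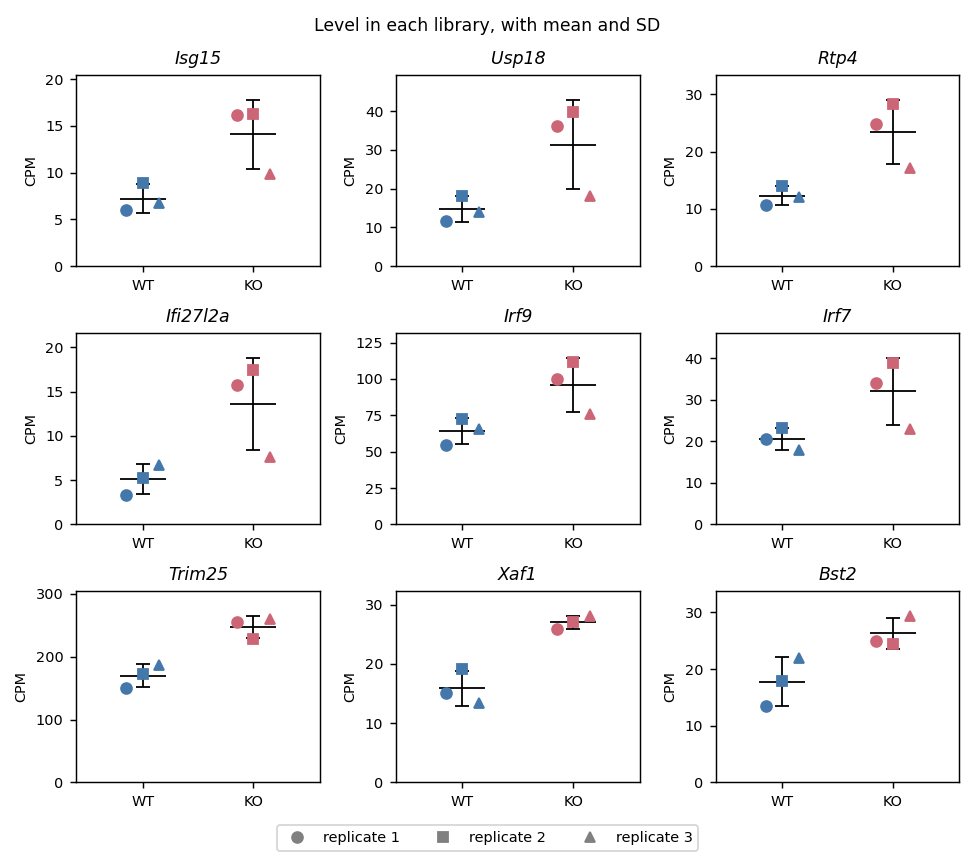
CPM of 9 members in each library, with WT in blue and KO in red, the marker shape giving the replicate, and the black bar and whiskers the mean and SD of 3 libraries. In Isg15, Usp18, Rtp4, Ifi27l2a, Irf9 and Irf7 KO replicate 3 is the lowest KO library, while in Trim25, Xaf1 and Bst2 it is the highest.

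The PARP proteins attach ADP-ribose to their targets, and the genes Dtx3l, Parp9 and Parp14 lie close together on chromosome 16. Parp9 had a log2 fold change of 0.32 (SE 0.12, edgeR unadjusted p = 0.0297), with 55.4 to 57.1 CPM in WT and 56.7 to 78.9 CPM in KO. Its exons share 458 bases with Dtx3l on the opposite strand, and the strand setting of the counting is not given, so reads there cannot be told apart. Parp14 had 0.42 (SE 0.15, edgeR unadjusted p = 0.0226) and Parp12, which lies on chromosome 6, had 0.33 (SE 0.26). Without KO replicate 1, at 26.2 CPM, the value of Parp12 was 0.00. In all 3 PARP genes the groups overlapped, with KO replicate 3 inside the range of WT.

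The IFIT proteins, which bind foreign RNA, showed large values in 1 KO library. Ifit1 was at 5.18, 9.54 and 4.51 CPM in WT and 8.65, 19.2 and 6.23 CPM in KO. KO replicate 2 stood highest, and the other KO libraries lay inside the WT range (log2 fold change 0.82, SE 0.45, edgeR adjusted p = 0.769; 0.22 without KO replicate 2). Ifit3 was at 1.38, 1.36 and 0.854 CPM in WT and 1.36, 3.42 and 1.80 CPM in KO (0.86, SE 0.39, edgeR adjusted p = 0.75; 0.40 without KO replicate 2). KO replicate 1 was level with WT, and KO replicates 2 and 3 were above it. Ifit3b, at 0.062 to 0.508 CPM, had too few reads to be tested. Its transcript is 97.8% identical to that of Ifit3 over 1700 bases, so reads of the pair can be lost or shared. Ifit2 was the exception among the tested IFIT genes, at 59.6, 73.4 and 63.9 CPM in WT and 73.5, 65.8 and 58.6 CPM in KO, so the groups overlapped throughout (0.01, SE 0.11). Per kilobase of exon it was also the most abundant, at 16.7 RPKM (CPM per kilobase of exon) in WT, against 2.41 for Ifit1 and 0.686 for Ifit3. The stretches printed above show paired response element letters before Ifit1 and Ifit3. The exact letters were absent from the Ifit2 windows, which does not show that the gene lacks a response element. Any link between these letters and the fold changes was not tested.

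The Mx genes encode dynamin-like GTPases that trap virus particles, and C57BL/6 mice, like most laboratory strains, carry an Mx1 allele that gives no working protein. Mx1 was at 1.29, 2.21 and 0.922 CPM in WT and 1.43, 4.20 and 1.27 CPM in KO. Only KO replicate 2 lay above the WT range, and the difference of 0.63 (SE 0.53, edgeR adjusted p = 0.837) became -0.12 without that library. Mx2 had a log2 fold change of 0.84 (SE 0.36, edgeR unadjusted p = 0.0494) that was 0.50 without KO replicate 2 (edgeR unadjusted p = 0.196), with 2.60 to 4.66 CPM in WT and 3.81 to 9.76 CPM in KO. Mx1 matches Mx2 at 94.8% identity over 921 bases of the Mx2 transcript.

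Rsad2 and Cmpk2 are neighbours on chromosome 12, and Rsad2 encodes an enzyme that makes an antiviral nucleotide from CTP. Rsad2, also called viperin, was at 3.45, 5.69 and 3.01 CPM in WT and 4.44, 10.6 and 4.93 CPM in KO. Its groups overlapped and KO replicate 2 stood highest (log2 fold change 0.72, SE 0.39, edgeR adjusted p = 0.768; 0.22 without KO replicate 2). Cmpk2 was at 4.59, 5.51 and 4.34 CPM in WT and 8.12, 9.15 and 6.6 CPM in KO. Its groups did not overlap, and the fold change was of the same size with a smaller error (0.72, SE 0.19, edgeR adjusted p = 0.54). Ddx60, a helicase with response element letters just before its start, had 0.74 (SE 0.31, edgeR unadjusted p = 0.0423), and 0.36 without KO replicate 2 (edgeR unadjusted p = 0.171). Isg20, an exonuclease, had 0.52 (SE 0.24), and Samhd1, which breaks down DNA building blocks, had 0.54 (SE 0.36) with KO replicate 1 as its lowest library at 1.89 CPM.

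Of the 4 genes for membrane and secreted proteins, 3 had every KO library above every WT library (Rtp4, Bst2 and Lgals3bp), as had 6.59% of all genes. The median over the 4 was 0.55. Rtp4 (chromosome 16, 23609919 to 23614222), a chaperone of receptors that also inhibits viruses, was at 10.7, 14.0 and 12.1 CPM in WT and 24.8, 28.2 and 17.2 CPM in KO. The groups did not overlap (log2 fold change 0.93, SE 0.20, edgeR adjusted p = 0.392; DESeq2 adjusted p = 0.00146). Bst2, or tetherin, which holds budding viruses on the cell surface, was at 13.4, 17.9 and 21.9 CPM in WT and 25.0, 24.4 and 29.4 CPM in KO. KO replicate 3 was the highest and every KO library above WT (0.57, SE 0.18, edgeR adjusted p = 0.661). Lgals3bp, a secreted glycoprotein, was at 64.8 to 78.9 CPM in WT and 80.1 to 115 CPM in KO, again without overlap (0.53, SE 0.15). Lgals9, a galectin and per kilobase the most abundant member at 164 RPKM in WT and 179 RPKM in KO, had 0.13 (SE 0.11).

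Of the 6 further genes, Ifi27, Ifi27l2a, Ifi35, Ifi44, Epsti1 and Xaf1, 3 were higher at an unadjusted p under 0.05 (3.41% of all genes), and the median was 0.64. Ifi27l2a was at 3.34, 5.21 and 6.76 CPM in WT and 15.7, 17.4 and 7.59 CPM in KO. The groups did not overlap, although KO replicate 3 and WT replicate 3 were close (log2 fold change 1.41, SE 0.36, edgeR adjusted p = 0.54; DESeq2 adjusted p = 0.00455). Its transcript matches Ifi27l2b at 87.3% identity, a gene with no counts here. Its neighbour Ifi27 had 0.50 (SE 0.19, edgeR unadjusted p = 0.0329), and 0.35 without KO replicate 2 (edgeR unadjusted p = 0.118). KO replicate 3, at 97.4 CPM, lay inside the Ifi27 range of 92.3 to 106 CPM in WT. Ifi44, named after its values were seen because it had the largest fold change, was at 0.878, 2.45 and 1.06 CPM in WT and 3.55, 9.11 and 0.93 CPM in KO. The difference of 1.62 (SE 0.75) came with an edgeR adjusted p of 0.75 and KO replicate 3 inside the WT range; without KO replicate 2 it was 0.61. Xaf1 (chromosome 11, 72301629 to 72313733), which antagonises the apoptosis inhibitor XIAP, was at 15.1, 19.1 and 13.4 CPM in WT and 25.9, 27.1 and 28.1 CPM in KO. The KO libraries lay close together and above all WT libraries (0.77, SE 0.14, edgeR adjusted p = 0.313; DESeq2 adjusted p = 0.000352). Ifi35 had 0.21 (SE 0.11) without overlap.

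None of the 4 Schlafen genes had an unadjusted p under 0.05. A pair of members, Epsti1 and the Schlafen gene Slfn5, had a fitted value below 0. Epsti1 was at 144, 117 and 124 CPM in WT and 127, 118 and 118 CPM in KO, with WT replicate 1 the highest library (log2 fold change -0.09, SE 0.089, edgeR adjusted p = 0.863). Slfn5 was at 29.4, 21.9 and 15.2 CPM in WT and 13.7, 26.3 and 18.6 CPM in KO (-0.18, SE 0.29, edgeR adjusted p = 0.914). Without WT replicate 1 the values were 0.01 for Epsti1 and 0.07 for Slfn5. Slfn2, which keeps resting T cells quiescent, had 0.11 (SE 0.083) and Slfn1 had 0.51 (SE 0.29). Slfn8 was at 46.5, 51.9 and 39.3 CPM in WT and 65.1, 71.1 and 29.4 CPM in KO, so that KO replicates 1 and 2 were above the WT range and KO replicate 3 below it (0.27, SE 0.29). It is 92% identical to Slfn9 over 3857 bases.

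Ifi203 and Ifi209 belong to the Ifi200 family of DNA-binding proteins and lie in a cluster on chromosome 1 between 173350879 and 173942672. Ifi209 was at 55.2, 47.3 and 39.3 CPM in WT and 67.7, 115 and 10.4 CPM in KO. Ifi203 was at 116, 109 and 102 CPM in WT and 84.9, 100 and 152 CPM in KO. KO replicate 3 was thus the lowest library for Ifi209 and the highest for Ifi203, and the log2 fold changes of 0.45 (SE 0.66) and 0.04 (SE 0.19) each average KO libraries that lay on both sides of the WT range. The 8 other cluster genes reaching 1 CPM in a library were looked at after these values were seen. In 7 of the 8, KO replicates 1 and 2 lay on one side of the WT range and KO replicate 3 on the other, as in 2.6% of all 11405 genes with a mean of at least 1 CPM. Mndal was the exception. Ifi204 had 443, 386 and 301 counts in WT, 0 and 3 counts in KO replicates 1 and 2, and 639 counts in KO replicate 3. Ifi206 ran the other way, at 6.38, 7.45 and 4.82 CPM in WT, 19.4 and 31.5 CPM in KO replicates 1 and 2, and 0.682 CPM in KO replicate 3. Ifi209 matches Ifi214 at 96.9% identity over 1946 bases, so reads of these genes are uncertain. The labels give C57BL/6 for every library, and whether the animals carried the same sequence at this cluster was not tested.

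**Figure D4:**
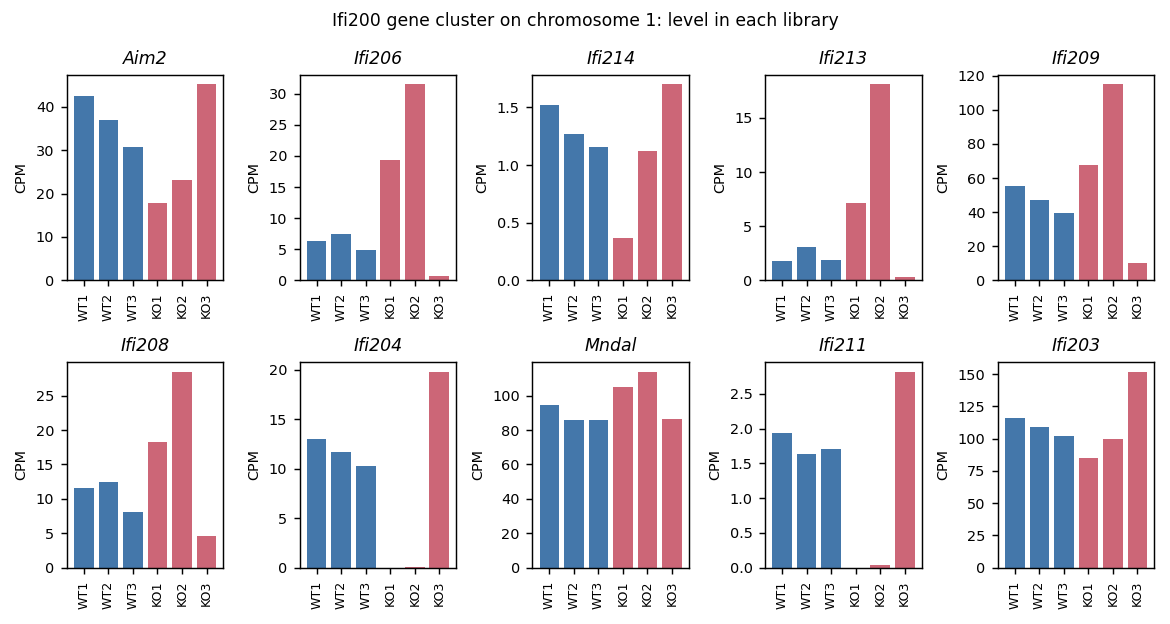
CPM of the 10 genes of the Ifi200 cluster that reached 1 CPM in a library, in gene order, with 1 bar per library (WT blue, KO red) and axes from 0. Ifi204 and Ifi211 are near 0 in KO replicates 1 and 2 and highest in KO replicate 3, while Ifi206, Ifi213, Ifi209 and Ifi208 show the reverse.

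The remaining nuclear genes were Sp100, a component of nuclear bodies, and the paralogs Phf11b and Phf11d. Sp100 was at 301 to 314 CPM in WT and at 365, 354 and 294 CPM in KO replicates 1 to 3 (log2 fold change 0.15, SE 0.089). KO replicates 1 and 2 were thus above the WT range and KO replicate 3 below it. Phf11b and Phf11d stayed under 1 CPM in each library, with 0.74 (SE 0.65) and 0.59 (SE 0.36). Both had enough reads to be tested only with their KO libraries counted, and a gene that passes this way tends to be higher in KO. Their transcripts are 92.9% identical over 692 bases.

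The median fold change differed with abundance. The 14 tested members with the highest mean RPKM (16.5 to 172) had a median log2 fold change of 0.14, the 14 in the middle (4.57 to 15.7 RPKM) 0.48 and the 14 with the lowest (0.0726 to 4.16 RPKM) 0.72. The lowest set holds Phf11b and Phf11d, which had enough reads to be tested only with their KO libraries counted. The ranges overlapped, at -0.09 to 1.41 for the highest and -0.18 to 1.62 for the lowest. In the highest, middle and lowest sets, 6, 8 and 3 of the 14 had an unadjusted p under 0.05, all higher in KO (3.41% of all genes). The 13 tested members with the ISRE core in a promoter window had a median of 0.57, the 21 with a window but without those letters 0.51, and the 8 without a matched window 0.73. Members with an unadjusted p under 0.05 numbered 3 of 13, 7 of 21 and 7 of 8. These are descriptions of the listed genes, and the difference between the sets was not tested.

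Other genes of the pathway did not pass the test. None of the 27 tested receptors, kinases, signalling factors, inhibitors, adaptors and DNA sensors had an edgeR adjusted p under 0.05 in either direction. Adar, an RNA-editing enzyme that limits the sensing of the cell's own RNA, was at 127 to 143 CPM in WT and 143 to 173 CPM in KO (log2 fold change 0.23, edgeR unadjusted p = 0.0359, adjusted p = 0.725). The receptor chains Ifnar1 and Ifnar2 had -0.08 and 0.20, and the kinases Jak1 and Tyk2 0.07 and -0.06. Of 21 interferon genes, 18 had no count in any library, Ifnb1 included; Ifng had 9 counts, Ifnz 5 and Ifnab 1 over all 6 libraries. RNA of interferon itself was therefore near or under the limit of detection in these sorted cells.

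Levels of markers of other cell types also varied between libraries. Of 17 myeloid and dendritic markers, 9 could be tested and 8 of these were above 0. The 17 together summed to 97.2 to 102 CPM in WT and 101 to 133 CPM in KO, with Xcr1 at 0. Their mean relative to the 6 libraries had WT values of -0.64, -0.09 and -0.12 and KO values of -0.59, 0.76 and 0.68. In KO replicate 1 this mean lay below WT replicates 2 and 3, but not every marker did. H2-Ab1, named after its values were seen, was at 6.63 CPM there and at 5.51 and 5.29 CPM in WT replicates 2 and 3, and Cst3 and Cd68 were also higher there. B cell markers (5 of 8 tested, 3 above 0, 797 to 884 CPM in WT and 802 to 846 CPM in KO) had WT means of -0.77, 0.44 and -0.27 and KO means of -0.52, 0.88 and 0.24. NK and gamma-delta markers (4 of 9 tested, all above 0) summed to 2.31 to 2.88 CPM in WT and 5.84 to 8.18 CPM in KO. Most of each sum came from Tcrg-C1 and Tcrg-C2. Among the untested markers, mean CPM in WT and KO was 0.0511 and 0.426 for Tyrobp and 0.0518 and 0.149 for Klrd1. It was 0.0293 and 0.0428 for Eomes, 0 and 0.0103 for Ncr1, and 0.0722 and 0.0555 for Klrb1c. The list means over the 4 tested markers were -0.65, -0.42 and -0.65 in WT replicates 1 to 3. The KO values were 0.19, 0.69 and 0.84, with no overlap between the groups. The median log2 fold change of these 4 was 1.37, and all 4 had an edgeR unadjusted p under 0.05 (3.41% of all genes were higher at that p). Tcrg-C2 was at 0.000405 and Tcrg-C1 at 0.000932, and 0 of 4 had an edgeR adjusted p under 0.05. Nkg7 and Fcer1g, the other tested markers, had enough reads to be tested only with their KO libraries counted. That favours higher values in KO, so their p-values and their part in the list means are no separate result. Plasmacytoid dendritic markers, from cells that make much interferon, summed to 8.63 to 11.5 CPM in WT and 7.59 to 13.2 CPM in KO, nearly all from Pacsin1; Siglech was at 0.0332 to 0.434 CPM and Cd300c at 0. Mature single-positive markers summed to 241 to 249 CPM in WT and 237 to 270 CPM in KO, stromal and endothelial markers to 153 to 180 and 149 to 160 CPM (Krt5, Foxn1 and Pdgfra at 0), and red cell markers to under 1 CPM in each library. In sorted bulk RNA, fewer cells of a type and less RNA per cell cannot be told apart, and the part of these cells in the interferon-stimulated genes was not tested.

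**Figure D5:**
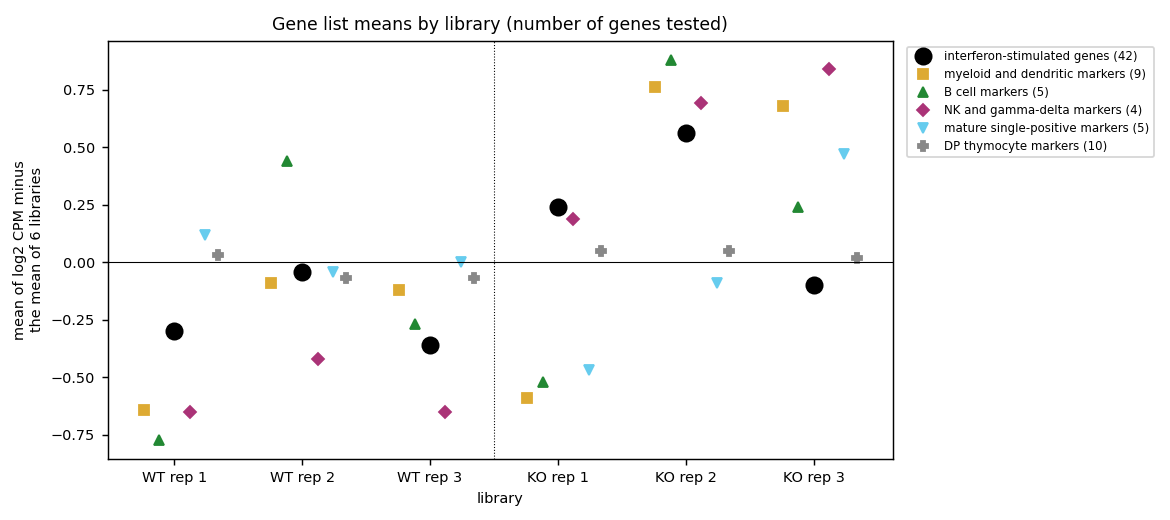
Mean log2 CPM of each gene list minus its mean over the 6 libraries (y axis), by library (x axis); the large black points are the 42 interferon-stimulated genes and the other markers are cell type lists, with the number of genes tested in brackets. KO replicate 1 is at 0.24 for the interferon-stimulated genes and at -0.59 for myeloid markers, and KO replicate 3 is at -0.10 and 0.68. The NK and gamma-delta markers are above 0 in all 3 KO libraries. Among these markers, Nkg7 and Fcer1g had enough reads to be tested only with their KO libraries counted.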

How the data were processed

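The authors deposited raw counts of each gene, by library and combined. The normalized signal that the authors also deposited equals these counts over a size factor for the library. A DESeq2 file named as paired holds the authors' log2 fold changes, standard errors and adjusted p-values. The tools named in the submitters' processing notes are DESeq2, HTSeq, STAR 2.5.2 and Trimmomatic 0.33, with mm10 as the build. The sources used here name neither a strand setting nor an annotation version for the counting. Reads without a feature (12.3% to 15.2% of reads per library), ambiguous reads (0.653% to 0.701%) and reads with several alignments (22.6% to 23.9%) were left out. The deposited gene lengths exceed the gene's span for 1982 of 43430 genes, so RPKM used exon lengths of GENCODE M21.

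KO was tested against WT with edgeR 4.0.16 in R 4.3.3 (TMM, filterByExpr, quasi-likelihood test on group, two-sided, Benjamini-Hochberg over 13039 genes, threshold 0.05). Standard errors are the fold change over the square root of F. DESeq2 1.42.0 and limma 3.58.1 (voom) were alternatives, and 14 alternatives were run in all, which also covered no filter, other scalings, replicate blocks and leaving out each library. Transcripts were compared with BLAST 2.17.0. The members and lists were chosen with earlier results of these data known. Values in every library are given for the 4 transcription factors, 7 effectors and regulators, the 8 members with the lowest edgeR p and those below 0. Ifit2, Ifi44, Slfn8, Ifi203 and Ifi209 are also given in every library, chosen after their values were seen. Of the other lists, a few genes each are named. Nkg7, Fcer1g, Tyrobp, Klrd1, Eomes, Ncr1 and Klrb1c were named after their values were seen. Some genes of the pathway and marker lists are not reported here.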

Additional observations from a re-analysis of the deposited data

How the results depend on the processing

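Over the 14 alternatives, the median log2 fold change of the members stayed above 0, at 0.34 (without KO replicate 2) to 0.63 (without KO replicate 3) when 1 library was left out. With 1 library left out, 0 members were called each time, and 12 to 24 had an unadjusted p under 0.05, against 17 with all. In the main fit 3.41% of all genes were higher and 3.31% lower at that edgeR p. The share of all genes is not given here for the refits or the blocks below. Whether it moved along with the members cannot be read from these counts. Members called were 1 with no filter on low counts (Trim25) and 7 with DESeq2. Genes called over all genes were 30 with no filter, 107 with DESeq2 and 4 to 23 with 1 library left out (8 without WT replicate 1, 14 without KO replicate 2, 23 without WT replicate 3), against 5. Log2 fold changes turned sign when 1 library was left out for Mx1 (-0.12 to 1.05), Epsti1 (-0.15 to 0.01) and Slfn5 (-0.45 to 0.07), and also for Ifi209 (-0.27 without KO replicate 2), Ifi203 (-0.23 without KO replicate 3) and Ifit2 (-0.08 without KO replicate 1); the cause was not tested. Without KO replicate 2, Trim30a was at 0.20, Isg20 at 0.33, Slfn1 at 0.20, Slfn8 at 0.05 and Ifi35 at 0.13; Samhd1 was at 0.20 without KO replicate 3. Same-numbered WT and KO libraries had correlated deviations from their group means of -0.149, 0.08 and 0.192, so the numbers were not taken as pairs. A replicate block gave 5 genes called, 0 members called, 22 members with an unadjusted p under 0.05 and a median of 0.48. A 2-level block setting replicate 3 apart, taken from earlier work on these files and of unknown meaning, gave 0 members called, 19 at an unadjusted p under 0.05 and a median of 0.50, and moved Ifi209 from 0.45 to 0.02. Depth limits the members under 1 CPM: Ifit3b, Phf11b and Phf11d.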
